A study of Mus musculus with 16 samples.

Results

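Empty-vector preSC are the control arm of a mouse RNA sequencing series and comprised 8 of its 16 samples. They were chosen by their labels alone: all 8 samples titled as empty preSC were taken, and the samples of the other arm, which carry Wnt5a, served only to check that each listed gene had a read in the series. preSC are precancerous cells that stand between normal lung neuroendocrine cells and small cell lung cancer (SCLC). Per the labels they are neuroendocrine cells of the lung that are positive for Chga, null for both Rb1 and Trp53 and heterozygous null for Rbl2, and they were infected with a lentivirus that holds no insert. All 8 samples had been given doxycycline at 1 µg/mL for 48 h before RNA was extracted, so the levels below are those of doxycycline-treated cells. They grew in culture in RPMI1640 medium with bovine growth serum. The labels give neither the promoter of the vector nor the exons removed from the null alleles, and they do not say whether the samples came from separate cultures.

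Pulmonary neuroendocrine cells are rare epithelial cells of the airway that sense the inhaled air and store peptides and amines in dense core vesicles. The zinc finger factor Insm1 acts in their program, and granins such as Chga pack the vesicles while prohormone convertases cut the stored precursors into active peptides. SCLC keeps much of this program and nearly always lacks the tumour suppressors Rb1 and Trp53, and cells of the present genotype serve as a model of its early steps.

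The table listed 17655 gene symbols, each with a normalised read count, which is the reads of a gene divided by a depth factor for the sample. Between 7526676 and 8181010 reads were recovered per sample, and 14719 to 14939 genes had a read. The 8 samples did not vary independently. Samples 1 to 4 differed from each other by close to sampling noise, as did samples 5 to 8: the chi-square of their reads per degree of freedom was 0.987 to 1.05 within these sets of 4 and 5.33 to 5.44 between them. A small excess over sampling noise was detectable within the sets, the chi-square p over genes being lowest for samples 1 and 2 (p = 0.000206). Each set was therefore averaged and counted as 1 library, called library A (samples 1 to 4) and library B (samples 5 to 8), and every ± below is an SD with n = 2 libraries. The spread across the 8 samples is given as the lowest, median and highest sample. With 2 libraries of 1 group no test was possible, and the values are a description. A gene is called expressed where its normalised read count was at least 10 in both libraries, which held for 12152 genes (68.8%). A gene is said to be at the floor where it had at most 3 reads in each library, which held for 2930 genes (16.6%), of which 753 had no read in either. Every listed gene had a read in at least 1 of the 16 samples of the series, so these shares are shares of listed genes. Levels of different genes are compared per length, as transcripts per 1000000 (TPM), while an order by normalised read count, where one is given, also depends on the length of each transcript. TPM is the normalised read count divided by the length of the gene's longest transcript and scaled to the same total in each library.

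The 4 markers taken for the labelled cells, Chga, Insm1, Calca and Syp, were all present in every sample. Of these, Chga is part of the label as described above. Chga, a granin that packs dense core vesicles, had a normalised read count of 3666 to 4465 (median 4017) in the 8 samples, with a mean of 4043 ± 462. Insm1, a zinc finger transcription factor of endocrine cells, read 4855 to 5343 (median 5053), with a mean of 5093 ± 179.7. Calca, whose transcript encodes calcitonin and the calcitonin gene-related peptide, read 7898 to 8557 (median 8282), with a mean of 8248 ± 348. All 4 samples of library A were higher than all 4 of library B for each of these genes, and no sample of any of these genes came near the value of 10. Syp, a membrane protein of synaptic vesicles, read 1492 to 1743 (median 1642), with a mean of 1622 ± 136, library A again being the higher. Per length the order was Calca at 3103 ± 182 TPM, Chga at 803 ± 105 TPM, Insm1 at 614 ± 31.7 TPM and Syp at 213 ± 21.4 TPM. Their ranks per length were 9, 115, 172 and 883 of 17453 genes with a length. The libraries did not overlap between any neighbours in that order, and the TPM ratio of Calca to Chga was 3.68 in library A and 4.08 in library B. The order of Insm1 and Syp depends on the transcript taken: with each gene's median transcript length, Syp stood at 496 TPM and Insm1 at 233 TPM. The order of Chga and Insm1 does too: with the merged length of all exons, Insm1 stood at 828 TPM and Chga at 739.7 TPM. Calca had rank 9 with the longest transcripts, 19 (2060 TPM) with the median length and 14 (2468 TPM) with the merged length.

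The letters at the gene starts differed among these markers, and 6 starts are shown, from one rich in CG dinucleotides to one with none; some other starts held more than any shown, such as Pcsk2 with 36 in 300 bases. Each line is the 250 bases before the most upstream start in RefSeq (GRCm38.p6), read 5′ to 3′ on the strand of the gene, and capitals mark CG dinucleotides. Ptma, on chr1:86526307-86526556 (+), was the most abundant transcript. Chga, on chr12:102554691-102554940 (+), and Syp, on chrX:7638330-7638579 (+), are markers taken for the labelled cells. Calca, on chr7:114636358-114636607 (-), and Ddc, on chr11:11898145-11898394 (-), the enzyme that makes dopamine and serotonin from their precursors, are abundant transcripts with fewer CG dinucleotides than Chga and Syp. Col3a1, on chr1:45311288-45311537 (+), a fibrillar collagen of fibroblasts, had 1 read in all 8 samples together.
Ptma: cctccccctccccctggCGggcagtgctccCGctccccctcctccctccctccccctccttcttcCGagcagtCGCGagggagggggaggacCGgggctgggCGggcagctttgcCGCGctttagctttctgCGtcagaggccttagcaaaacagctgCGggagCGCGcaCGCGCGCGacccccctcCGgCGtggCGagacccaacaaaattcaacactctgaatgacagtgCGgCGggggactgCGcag
Chga: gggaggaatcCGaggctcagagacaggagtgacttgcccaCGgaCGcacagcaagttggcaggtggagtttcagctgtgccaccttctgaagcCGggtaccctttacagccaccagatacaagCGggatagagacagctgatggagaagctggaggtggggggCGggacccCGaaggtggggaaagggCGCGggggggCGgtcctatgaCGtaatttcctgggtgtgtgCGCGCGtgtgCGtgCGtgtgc
Syp: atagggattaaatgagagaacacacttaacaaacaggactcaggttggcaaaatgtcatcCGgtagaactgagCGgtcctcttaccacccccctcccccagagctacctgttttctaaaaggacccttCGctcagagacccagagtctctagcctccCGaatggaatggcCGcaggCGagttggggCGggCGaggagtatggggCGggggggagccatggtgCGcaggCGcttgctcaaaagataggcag
Calca: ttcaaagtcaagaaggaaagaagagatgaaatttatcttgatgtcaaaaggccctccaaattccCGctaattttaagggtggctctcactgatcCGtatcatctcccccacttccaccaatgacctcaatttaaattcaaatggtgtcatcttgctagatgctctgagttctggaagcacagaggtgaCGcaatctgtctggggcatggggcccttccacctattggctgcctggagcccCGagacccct
Ddc: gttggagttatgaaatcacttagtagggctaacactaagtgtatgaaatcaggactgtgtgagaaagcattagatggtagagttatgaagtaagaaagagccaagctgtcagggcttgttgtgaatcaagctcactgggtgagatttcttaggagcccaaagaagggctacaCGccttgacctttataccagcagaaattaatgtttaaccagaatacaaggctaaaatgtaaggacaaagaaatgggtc
Col3a1: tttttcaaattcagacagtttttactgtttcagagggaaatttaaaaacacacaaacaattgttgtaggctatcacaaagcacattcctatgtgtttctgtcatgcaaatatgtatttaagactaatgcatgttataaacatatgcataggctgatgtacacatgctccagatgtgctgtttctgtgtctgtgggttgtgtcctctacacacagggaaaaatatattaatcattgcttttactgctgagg

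With the 50 bases after the start included, these windows of 300 bases held 28 CG dinucleotides at Ptma, 21 at Chga, 18 at Syp, 8 at Calca, 2 at Ddc and none at Col3a1. The median over all 13805 listed genes with a RefSeq start was 18, the value at Syp. Insm1 had no entry in the table of starts. Among the 100 genes with the highest TPM, 77 had an entry, their median was 24, and 5 held fewer than 10 CG dinucleotides. Those 5 were Calca, Ddc, Uchl1, Resp18 and Krt8. Calca, Ddc, Uchl1 and Resp18 are members of the neuroendocrine lists described below, and Krt8 is an epithelial keratin. Pam, the other neuroendocrine gene among the 77, held 35.

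The genes named so far sit in a wide ranking. The 10 most abundant genes held 3.28% ± 0.0297 of the reads, the 100 most abundant 12.2% ± 0.159 and the 1000 most abundant 41.9% ± 0.0840. It took 1431 genes in library A and 1426 in library B to make up 50% of the reads, and 6204 and 6208 genes to make up 90%. The libraries were thus not dominated by a few transcripts.

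By normalised read count, which does not correct for length, the first genes were Ptma and Igfbp5. Ptma, the small nuclear protein prothymosin alpha, read 38829 to 42593 (median 40500.2) in the samples, with a mean of 40592 ± 2292. Igfbp5, a secreted binding protein of insulin-like growth factors, read 37817 to 43412 (median 40494), with a mean of 40571 ± 3535. Nov, a secreted matricellular protein, followed at 32395 ± 1640.05, and Eef1a1, the elongation factor that brings aminoacyl-tRNA to the ribosome, at 29986 ± 1048. Gnas, which encodes a stimulatory G protein alpha subunit, read 22334 to 22791 (median 22611), with a mean of 22589 ± 179.

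Other genes of the leading 20 by normalised read count were Nnat, an imprinted membrane proteolipid of neuroendocrine and neural tissue, at 22257 ± 2484, Hmgn2, a nucleosome-binding protein, at 20753 ± 2629, and the constitutive chaperone Hspa8 at 19264 ± 189. Col8a1, a short-chain collagen, stood at 15700.1 ± 1012. Cd9, a tetraspanin of the cell surface, stood at 14278 ± 84.4, and Stmn1, which destabilises microtubules in dividing cells, at 14026 ± 987. Pam, which amidates secreted peptides, was the 17th gene at 13095 ± 335, and Ctnnb1, which encodes beta-catenin, the 18th at 12684 ± 8.54. The entry Rn45s, the precursor of ribosomal RNA, read 19205 ± 1855 and had no length. It held 0.231% ± 0.0216 of the reads of these libraries, which were made by selection of polyadenylated RNA.

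Per length, Ptma again led at 12471 ± 499.8 TPM, followed by Eef1a1 at 6246 ± 116 TPM, Nnat at 5739.97 ± 547 TPM, Stmn1 at 4943 ± 267 TPM and Cd9 at 4346 ± 45.6 TPM. With the longest transcripts, Calca was the ninth gene at 3103 ± 182 TPM. Short transcripts moved up on this scale, among them Calm2, a calmodulin gene, at 2605 ± 109.9 TPM and Mt2, a metal-binding metallothionein, at 2246 ± 5.26 TPM, while Igfbp5 stood at 2527 ± 261 TPM. The ribosomal protein genes gave 24 of the 100 highest genes by TPM and 1 of the 100 highest by normalised read count. The neuroendocrine lists gave 6 on either scale, among them Calca, Ddc, Pam and Uchl1 on both, with Pcsk1 by normalised read count and Resp18 by TPM.

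**Figure D1:**
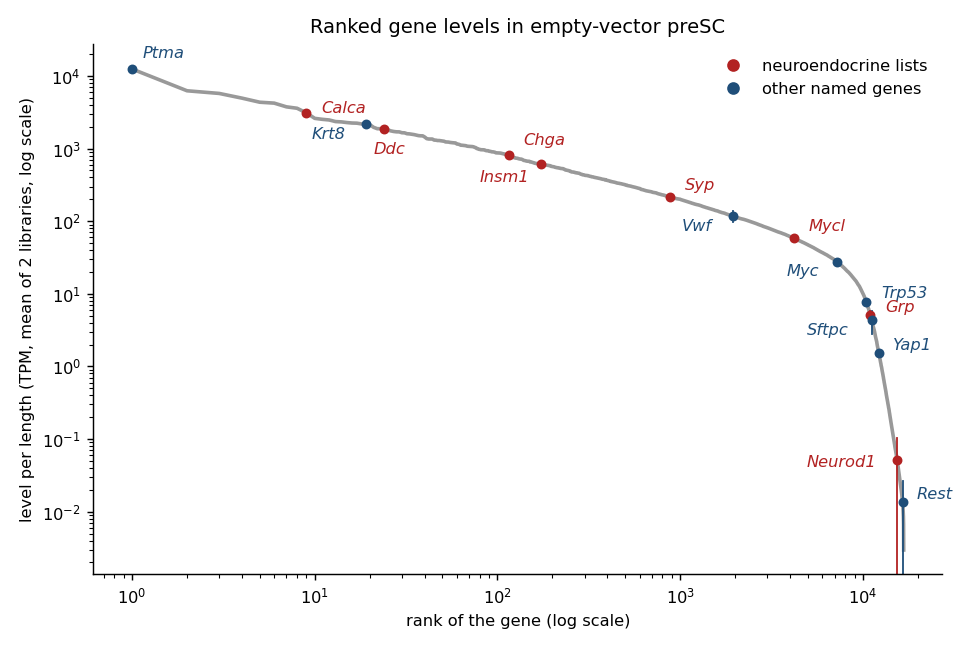
Ranked gene levels in empty-vector preSC. The x axis is the rank of each gene (log scale) and the y axis its level in TPM (log scale, mean of 2 libraries); the grey line is all genes with a level above 0, points are named genes, red for the neuroendocrine lists and blue for others, and vertical bars join the values of library A and library B. With the longest transcripts, Calca lies among the 10 highest genes. Neurod1 and Rest, each with reads in 1 library only, lie at the far end of the ranking.

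The neuroendocrine program was described with 4 lists, of which 54 members were in the table. Of these, 46 (85.2%) were expressed, against 68.8% of all listed genes, and 5 were at the floor, against 16.6%. Together the 54 genes held 1.70% ± 0.0580 of all reads. In bulk RNA, fewer cells of a type and less RNA per cell cannot be told apart, so a level here is an average over the culture. The 46 expressed genes spread widely per length, with 6 genes above 1000 TPM, 25 between 100 and 1000 TPM and 15 under 100 TPM. In 25 of the 45 pairs of neighbours in that order the libraries overlapped, so the order is firm only across larger steps.

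Of the transcription factors, 13 of 16 were expressed. Foxa1 and Foxa2, pioneer factors of endoderm, stood at 461 ± 33.9 TPM and 411 ± 30.9 TPM. Nkx2-1, the homeodomain factor that marks lung and thyroid, stood at 366 ± 11.1 TPM. Its normalised read count was 2665 to 2896 (median 2730.4) in the samples, so no sample lacked it. Next came Prox1, a homeodomain factor of neuroendocrine and lymphatic cells, at 251 ± 16.1 TPM, and Sox2, a factor of the proximal airway and of neural progenitors, at 241 ± 1.65 TPM. Sox1, another factor of neural progenitors, stood at 198 ± 15.98 TPM. It belongs to no neuroendocrine list and was the eighth highest of 84 factors taken from the neuroendocrine, variant, Sox, Fox, Pax, Gata and Nkx lists. Foxj3 at 125 ± 5.28 TPM and Foxp1 at 117 ± 6.53 TPM, forkhead factors found in many tissues, were also among the highest 10.

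The lower members of that list included Myt1, a zinc finger factor of neuronal differentiation, at 116 ± 8.59 TPM, Nfib, a chromatin-opening factor, at 38.1 ± 2.49 TPM and Pou3f2, a POU factor of neurons, at 14.95 ± 0.7905 TPM. The members that were not expressed are all bHLH factors of neural lineages. Neurod1, which marks a subtype of SCLC, had 0 reads in library A and 3 in library B. Nhlh1 had 0 and 4 reads, and Nhlh2 had 2 and 1.

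Human SCLC is commonly sorted by a few transcription factors, NEUROD1, POU2F3 and YAP1 among them, and by which MYC gene is high. Pou2f3, the master factor of tuft cells, had 0 reads in library A and 1 in library B. Yap1, the transcriptional effector of the Hippo pathway, read 13.3 to 28.8 (median 22.2) in the samples, with a mean of 21.5 ± 2.72, or 1.53 ± 0.217 TPM. Yap1 was above the value of 10 in every sample. Rest, the repressor of neuronal genes outside the nervous system, had 0 and 2 reads. Hes1, a repressor that is a target of Notch, read 9.88 to 35.5 (median 25.4), with a mean of 25.1 ± 9.804, and its libraries differed, at 18.2 in A and 32.1 in B.

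Mycl, the family member often amplified in classic SCLC, read 487 to 625 (median 542) in the samples, with a mean of 543 ± 27.5. Myc read 149 to 205 (median 169), with a mean of 172 ± 4.08. Per length Mycl stood at 58.01 ± 3.89 TPM and Myc at 27.5 ± 1.104 TPM, a ratio of 2.07 (library B) to 2.15 (library A).

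All 14 genes of the secretory list were expressed and held 0.613% ± 0.0396 of the reads. Resp18, a protein of the endocrine secretory pathway, read 2834 to 4061 (median 3406) in the samples, with a mean of 3435 ± 775. Its libraries did not overlap, library A being the higher, and per length it led the list at 1719 ± 415 TPM. Pam followed at 1193 ± 11.003 TPM and Chga after it. The carboxypeptidase Cpe, which trims basic residues off cut precursors, stood at 625 ± 62.7 TPM. Scg2, also a granin, stood at 611 ± 68.9 TPM.

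Among the convertases Pcsk1 stood at 538 ± 20.4 TPM and Pcsk2 at 251 ± 6.15 TPM, a ratio of 2.17 in library A and 2.12 in library B. Their chaperones and inhibitors were present too: Scg5, which chaperones Pcsk2, at 382 ± 109.9 TPM, and Pcsk1n, an inhibitor of Pcsk1, at 230.3 ± 30.3 TPM. Ptprn, a receptor-like protein of the vesicle membrane, stood at 380.2 ± 73.9 TPM and its relative Ptprn2 at 153 ± 33.3 TPM. Scg3 and Chgb, further granins, stood at 355 ± 14.4 TPM and 268 ± 24.2 TPM. The lowest member was Vgf, a granin-like precursor of neuropeptides, at 19.9 ± 1.79 TPM and 125 to 184 (median 148) normalised reads in the samples. The list therefore covered the whole route from packing to cutting and amidation, at levels from 19.9 ± 1.79 TPM for Vgf to 1719 ± 415 TPM for Resp18.

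All 12 genes of the synaptic vesicle and adhesion list were expressed and held 0.245% ± 0.00358 of the reads. Uchl1, a ubiquitin hydrolase abundant in neurons and neuroendocrine cells, made up 56.5% of the list's TPM. It read 4863 to 6212 (median 5539) in the samples, with a mean of 5531 ± 894, and here library B was the higher. The vesicle fusion genes Syt1, the calcium sensor of release, Snap25, a SNARE protein, and Rab3a, a vesicle GTPase, lay close together at 154 ± 22.7, 151 ± 16.4 and 150.3 ± 10.6 TPM, and their libraries overlapped. Dnajc6, an uncoating chaperone of clathrin vesicles, stood at 160.5 ± 7.63 TPM. Ncam1, the adhesion molecule known as CD56 in SCLC diagnosis, stood at 91.8 ± 2.48 TPM and L1cam, a related adhesion molecule, at 56.1 ± 1.62 TPM. Eno2, the neuron-specific enolase used as a serum marker, was lower at 48.2 ± 9.54 TPM.

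Of the peptides and amine enzymes, 7 of 12 members were expressed (58.3%, against 68.8% of all listed genes), and 4 at a minimum of 50. Another 3 were at the floor, where 16.6% of all listed genes were. Levels were uneven on this list. Calca held 59.4% of its TPM and Ddc most of the remainder. Calcb, the close relative of Calca, read 12.3 to 21.03 (median 15.8) in the samples. The TPM of Calca was 438-fold that of Calcb in library A and 534-fold in library B. Grp, the bombesin-like peptide of human lung neuroendocrine cells, read 7.75 to 21.4 (median 19.05), with a mean of 17.9 ± 4.24. Nmb, its relative neuromedin B, had a mean of 11.6 ± 0.845. Individual samples of both fell under 10, so these genes sat at the edge of what was called expressed. Cartpt, a secreted neuropeptide precursor, was clearly higher, with 395 to 579 (median 472) in the samples and a mean of 469 ± 78.1.

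Of the remaining peptides, Gal (galanin) had 4 and 5 reads in the libraries and Adcyap1 (the pituitary adenylate cyclase activating peptide) had 0 and 2. The genes Sst, Npy and Tac1 were not analysed here. The amine genes split in the same uneven way. Ddc read 9651 to 10491 (median 10074) in the samples, with a mean of 10082 ± 451 and 1867 ± 52.9 TPM. The hydroxylases that feed it with serotonin precursor were low, Tph1 with 18 and 11 reads and Tph2 with 2 and 3 reads. Th, the hydroxylase of the dopamine route, had a mean of 13.2 ± 1.68. Of the vesicular monoamine transporters, Slc18a1 read 744 to 878 (median 803) in the samples, with a mean of 805 ± 51.6, while Slc18a2 had 1 read in each library. The neuroendocrine amine transporter found in these cells was thus Slc18a1. With the longest transcripts, the decarboxylase Ddc stood 17.9-fold (library A) to 20.9-fold (library B) above it in TPM. Ddc stood at 1622 TPM with the median transcript length and at 1138 TPM with the merged exon length.

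The cells also read as epithelial. Of 15 general epithelial genes, 14 were expressed (93.3%, against 68.8% of all listed genes), and the list held 0.573% ± 0.0214 of the reads. Krt8, a keratin of simple epithelia, read 10671 to 11921 (median 11329) in the samples, with a mean of 11326 ± 699.7, and stood at 2163 ± 169 TPM. Epcam, an epithelial adhesion molecule, stood at 1096 ± 69.4 TPM and Krt7, another simple keratin, at 871 ± 43.8 TPM. Krt18, the partner of Krt8 in filaments, stood at 752 ± 122 TPM, so that Krt8 was 2.72-fold (library A) to 3.07-fold (library B) above it. That ratio was taken with the longest transcripts. Krt8 stood at 821 TPM with the median transcript length and at 2915 TPM with the merged exon length. Cdh1, the epithelial cadherin, stood at 640.3 ± 28.96 TPM. Its TPM was 4.19-fold (library A) and 3.82-fold (library B) that of Cdh2, the neural cadherin, which read 1969 to 2181 (median 2082) in the samples. Both cadherins were therefore present. The exception on the list was Krt19, a keratin of simple epithelia that often accompanies Krt8 and Krt18, with 2 reads in library A and none in library B.

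Of 43 listed markers of the other lung epithelial lineages, 17 were expressed, 17 were at the floor and 9 lay between, where 68.8% of all listed genes were expressed. The ciliated list gave 8 of the 17. Of the alveolar type 2 list, 2 of 7 were expressed: Abca3, a lipid transporter of lamellar bodies, at 1429 ± 163, and Etv5, an ETS factor, at 27.1 ± 11.4. The secreted surfactant genes were low. Sftpc read 4.42 to 15.3 (median 7.39) in the samples, with a mean of 9.13 ± 4.73, so a few reads per sample were present. Sftpa1 had 3 and 6 reads and Sftpd had none in either library, which allows up to 3 reads in each, counting error only. Of the club cell list, Aldh1a1, a retinal dehydrogenase found in many epithelia, read 877 ± 101 and Upk3a, a uroplakin, 33.2 ± 4.49, while Scgb1a1, the defining secretoglobin, had 0 and 1 reads, Cyp2f2 had 0 and 1, and Cbr2 had none.

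Of the alveolar type 1 list, 3 of 7 were expressed, where 68.8% of all listed genes were. They were led by Rtkn2, a GTPase-binding protein, at 194 ± 24.3 and Akap5, an anchoring protein of protein kinase A, at 127 ± 9.18. The defining Ager was at 12.9 ± 2.79, and Pdpn had 0 and 1 reads. No gene of the basal or goblet lists was expressed, Trp63, the basal cell factor, having 1 read in each library and Muc5ac, a gel-forming mucin, 0 and 2. The ciliated list differed, with 8 of 9 expressed (88.9%, against 68.8% of all listed genes). Its median was 67.3, under the median of 343 over all expressed genes. By normalised read count its highest members were Rfx3, a factor of ciliary genes, at 359 ± 26.8, and Ccdc40, an assembly factor of the axoneme, at 129.98 ± 0.5597. Tppp3, a tubulin-binding protein, came after them at 114 ± 10.5. Per length Tppp3 led the list, with 31.2% of its TPM. Foxj1, the master factor of motile cilia, read 13.3 to 34.5 (median 24.3) in the samples, with a mean of 23.9 ± 0.331. The tuft cell list had 2 of 6 expressed, Dclk1, a microtubule-binding kinase, at 195 ± 40.01 and Avil, an actin-binding protein, at 14.95 ± 5.16.

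Stromal and blood markers were fewer still, with 4 of 30 listed genes expressed (13.3%, against 68.8% of all listed genes). At the floor were 14 of them, where 16.6% of all listed genes were. No leukocyte and no smooth muscle marker was expressed. Of the leukocyte list, Cd68, a lysosomal protein of macrophages, was the highest at 10.9 ± 2.198, and Itgam had no read. Only 27.6% of the 50-base windows in the longest Itgam transcript occurred in no other gene. The part of the counting in its lack of reads was not tested. Of the fibroblast list only Dcn, a small proteoglycan, was expressed. It read 318 to 632 (median 465) in the samples, with library A at 597 and library B at 340.2. The collagens that define fibroblasts did not accompany it: Col1a1 had 8 and 14 reads, Col1a2 none, and Col3a1, whose start is printed above, 0 and 1.

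The endothelial list was expressed for Vwf and Erg. Vwf, the von Willebrand factor of endothelium and platelets, read 2300.4 to 3261 (median 2741) in the samples, with a mean of 2767 ± 618, and stood at 117 ± 28.1 TPM, rank 1936 per length. All 4 samples of library A exceeded all 4 of library B. Vwf held 95.3% of the TPM of its list. Erg, an ETS factor of endothelium, had a mean of 45.5 ± 6.23, while Pecam1, an endothelial adhesion molecule, had 15 and 11 reads, Cdh5, the endothelial cadherin, 1 and 1, and Emcn, endomucin, 0 and 1. Vwf and Erg were thus found without Pecam1, Cdh5 and Emcn at the level called expressed. No 50-base window of the longest Vwf transcript was shared with another gene. On the erythroid list Epor, the erythropoietin receptor, was expressed, at 19.8 ± 2.26.

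Lists of other endocrine, neural and distant tissues gave 11 expressed genes of 48 (22.9%, against 68.8% of all listed genes). Ret, a receptor tyrosine kinase of thyroid C cells and neural crest, was the highest. It read 3834 to 4275 (median 4136) in the samples, with a mean of 4099.8 ± 192 and 281 ± 17.8 TPM. Mbp, whose locus also yields transcripts outside myelin, read 1513 ± 49.6, and Aqp4, a water channel of astrocytes and airway epithelium, 534 ± 27.9. Gfap, the astrocyte filament, had no read in any sample. Ttr, the transthyretin carrier, read 130.4 ± 26.6, while Gcg, which encodes glucagon, averaged 11.6 ± 3.097 but was under 10 in library A. The germ cell list had no expressed gene.

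Of 15 neuronal genes 10 were expressed (66.7%), near the 68.8% of all listed genes. Elavl3, a neuronal RNA-binding protein, stood at 267 ± 13.6 TPM, Map2, a dendritic microtubule protein, at 236 ± 19.7 TPM and Tubb3, neuronal beta-tubulin, at 189 ± 31.9 TPM. Syn1, a synaptic vesicle phosphoprotein, stood at 96.7 ± 15.6 TPM. Others were close to absent. Stmn2, the neuronal relative of Stmn1, had 1 and 6 reads. Rbfox3, which encodes the NeuN antigen of mature neurons, had 10 and 21. Among the neurofilaments, Nefm had 1 read in each library and Nefl 10 and 13, whereas Nefh read 219 to 361 (median 286) in the samples.

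**Figure D2:**
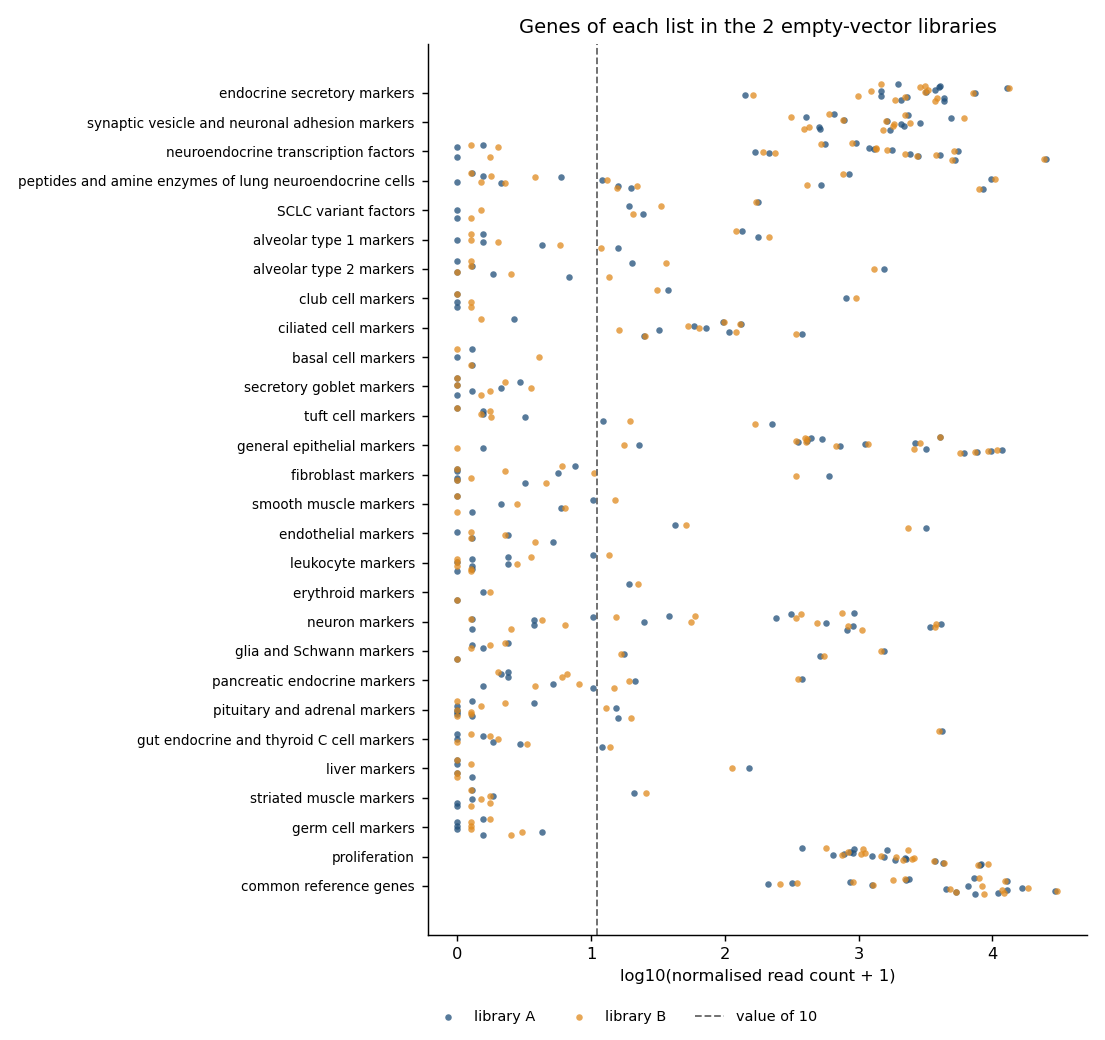
Genes of each marker list in empty-vector preSC. Each point is 1 gene in 1 library (blue for A, orange for B), the x axis is log10(normalised read count + 1), rows are the lists, and the dashed line is the value of 10. All genes of the secretory and synaptic lists lie to the right of the line, most genes of the stromal, leukocyte and germ cell lists to its left, with Vwf at 2767 and Dcn at 468 standing apart.

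The genes of the genotype were read next. Rb1, labelled null, read 3158 to 3302 (median 3227) in the samples, with a mean of 3223 ± 8.73 and 259 ± 3.54 TPM. Trp53, also labelled null, read 59.6 to 78.8 (median 66.9), with a mean of 67.4 ± 3.71 and 7.69 ± 0.297 TPM. Rbl2, heterozygous by label, read 299 to 339.7 (median 322), with a mean of 321 ± 4.56. Reads were summed over whole genes, and the removed exons are not given, so these totals neither check nor contradict the labels. Rb1 stood at rank 671 per length and Trp53 at rank 10445. Among related genes, Rbl1, the remaining pocket protein, read 828 ± 65.6, and the inhibitors of cyclin-dependent kinases Cdkn2a, Cdkn2c and Cdkn1a read 926 ± 96.5, 2595 ± 200.5 and 1456 ± 22.3. Cdkn2c and Cdkn2a, which act upstream of Rb1, stood at 392 ± 23.9 TPM and 387 ± 33.97 TPM. Wnt5a, the gene carried by the other arm, was present in these cells at 90.4 to 174 (median 114) in the samples, with a mean of 122 ± 31.4, and library A was higher than library B.

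All 16 proliferation genes were expressed, against 68.8% of all listed genes, and they held 0.499% ± 0.0338 of the reads. Top2a, the topoisomerase of dividing cells, read 8117 to 9409.8 (median 8722) in the samples, with a mean of 8728 ± 684, and Mki67, the Ki-67 antigen, read 7753 to 8107 (median 7939), with a mean of 7932 ± 146. Per length Pcna, the replication clamp, led the list at 1056 ± 5.49 TPM. E2f1, a factor released when Rb1 is lost, stood at 114 ± 5.06 TPM. The Y-linked genes Ddx3y, Eif2s3y, Uty and Kdm5d read 540.3 ± 7.58, 488 ± 54.6, 233 ± 17.6 and 201 ± 34.01, and Xist, the RNA of the inactive X chromosome, had 15 and 8 reads.

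Families defined by gene symbol differed in the share of members expressed, which was 68.8% over all listed genes. Membership was by symbol alone, so a family can hold entries of another kind, such as Hoxb5os, an opposite-strand entry by its symbol. All 52 translation initiation factors were expressed, as were 47 of 49 proteasome subunits, 39 of 41 hnRNP and SR splicing proteins, 79 of 83 subunits of oxidative phosphorylation and 78 of 82 cytosolic ribosomal proteins. Eif1 led the initiation factors and Psma1 the proteasome subunits in TPM. Of the zinc finger genes named Zfp, 339 of 371 were expressed, mostly at low levels, with a median of 136. Mitochondrially encoded genes and hemoglobins were not analysed here.

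The ribosomal protein genes held 1.89% ± 0.146 of the reads. No member dominated: Rplp1, of the stalk, was the highest at 1699.7 ± 95.96 TPM and made up 3.14% of the family's TPM. A few members were at odds with their family and were singled out after their values were seen. Rpl26 had no read in any sample and Rps27 had 13 and 25, while Rpl30 read 10.7 ± 0.05304 and Rpl34 14.4 ± 1.63. These genes encode standard subunits of the ribosome. Likewise Ndufs5, a subunit of complex I, had 2 and 1 reads and Rab1b, a GTPase of transport from the endoplasmic reticulum to the Golgi, 11 and 1.

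Reads that fit several genes are often dropped in counting, and ribosomal protein genes have many near-identical copies. Of the 50-base windows in the longest transcript, 52.6% occurred in no other gene for Rpl26, 72.4% for Rps27, 86.1% for Rpl30 and 93.1% for Rpl34. The median was 65.0% over the 82 ribosomal genes and 100% over the 663 other named genes. The share was 68.9% for Ndufs5 and 100% for Rab1b. Across the 82 ribosomal genes the share of such windows had a Spearman correlation of -0.51 with TPM. It is given as a description over genes that share the same libraries. The length of the longest transcript enters both measures, so the correlation cannot tell the counting apart from transcript length. The part of the counting in these low values was not tested.

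Among secretory and membrane traffic families, 51 of 59 Rab GTPases were expressed (86.4%, against 68.8% of all listed genes), led by Rab2a, a GTPase between Golgi and endoplasmic reticulum, at 362 ± 0.118 TPM. Of 15 synaptotagmins 12 were expressed, led by Syt1, and of 27 syntaxins, Snaps and Vamps 23, led by the vesicle SNARE Vamp2 at 431 ± 72.7 TPM. Voltage-gated calcium channel subunits followed with 18 of 24, and the accessory subunit Cacna2d1 read 5259 to 5799.9 (median 5475) in the samples and stood at 277 ± 16.6 TPM. That share was 75%, while the shares of the sodium and potassium channel subunits were under the 68.8% of all listed genes. Sodium channel subunits were expressed in 7 of 14 cases, led by Scn9a at 53.5 ± 3.82 TPM, and potassium channel subunits in 45 of 84, led by the leak channel Kcnk1 at 284 ± 26.2 TPM.

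Receptors for neurotransmitters were sparser, each family lying under the 68.8% of all listed genes, and each of these families was carried by few members. Of 17 GABA-A and glycine receptor subunits 5 were expressed, Glrb, the beta subunit of the glycine receptor, being at 79.7 ± 8.64 TPM. Of 15 nicotinic subunits 5 were expressed, and Chrnb2 made up 64.6% of their TPM at 50.3 ± 0.326 TPM. Of 19 ionotropic glutamate receptor subunits 9 were expressed, led by Grik5, a kainate receptor subunit, at 78.7 ± 0.178 TPM. Among 8 adrenergic and dopamine receptors Drd2, the D2 dopamine receptor, read 488 to 581 (median 515) in the samples, with a mean of 528 ± 44.9. Of 6 serotonin receptors only Htr3a, an ion channel, was expressed, at 51.8 ± 23.7, with library B the higher.

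Few chemosensory receptors, interleukins or chemokines were expressed, beside 68.8% of all listed genes. Of 38 olfactory receptor genes 3 were expressed and 34 were at the floor, and the highest, Olfr856-ps1, is a pseudogene by its symbol and read 79.7 ± 28.1. Of 22 vomeronasal receptors 3 were expressed and of 6 taste and trace amine receptors none. No interleukin of 20 was expressed, 15 being at the floor, and 1 of 15 chemokines was, Ccl27a at 31.1 ± 1.43. Other immune families differed, with 5 of 6 interferon genes expressed, a group taken by symbol that here holds mainly interferon receptors. Of 23 class I and class II MHC genes 14 were expressed (60.9%, against 68.8% of all listed genes), led by the classical class I gene H2-K1 at 430.1 ± 17.4 TPM, and B2m, their light chain, stood at 143 ± 6.19 TPM. The highest chemokine receptor was Cxcr4 at 169.9 ± 20.4.

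Of the adhesion and matrix families, several were led by 1 gene, and each had a share expressed under the 68.8% of all listed genes. Of 40 entries taken as collagens by symbol 13 were expressed, and Col8a1 alone made up 74.1% of their TPM, at 1149 ± 92.9 TPM. Of 23 keratins 6 were expressed and Krt8 made up 56.6%. Of 26 entries taken as integrins by symbol 13 were expressed, with Itgb1, the common beta subunit, at 493 ± 9.87 TPM. Of 23 cadherins 12 were expressed, led by Cdh1, and of 65 protocadherins 29, led by Pcdh7 at 165 ± 28.2 TPM. Of 16 claudins 9 were expressed, led by Cldn7 at 320.02 ± 4.49 TPM. Of 26 serpins 7 were expressed, led by Serpine2, an inhibitor of thrombin-like proteases, at 346 ± 23.4 TPM.

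Among developmental families, of 14 entries with Hox symbols 6 were expressed (42.9%, against 68.8% of all listed genes). The highest was Hoxb5 at 90.98 ± 12.3 TPM. Sox factors were expressed in 10 of 18 cases (55.6%) and Fox factors in 24 of 36 (66.7%, near the share of all listed genes), led by Sox2 and Foxa1. Of 14 Wnt ligands 7 were expressed, led by Wnt5b at 46.3 ± 2.24 TPM, and of 10 Frizzled receptors 5, led by Fzd6 at 30.7 ± 1.79 TPM. Fgf13, an intracellular member of its family, led the 17 fibroblast growth factors at 192 ± 2.02 TPM. Histones gave 18 of 72, led by the variants H2afz at 1825 ± 152 TPM and H3f3a at 1599.8 ± 90.6 TPM. Variant histone messages carry poly(A) tails and most replication histone messages do not, and these libraries were made by oligo-dT selection, whose part in the histone counts was not tested.

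Closely related enzymes also differed. Of 20 glycolytic enzymes 16 were expressed (80%, against 68.8% of all listed genes), led by Pkm, pyruvate kinase, at 1352 ± 103 TPM. Ldha, the lactate dehydrogenase subunit that favours lactate, read 1759 to 2288 (median 2039) in the samples, with a mean of 2027 ± 329.9, while Ldhb, its partner subunit, had 2 and 3 reads. Hk2, an inducible hexokinase, had 27 and 10 reads. Ldhb and Hk2 were singled out after their values were seen.

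**Figure D3:**
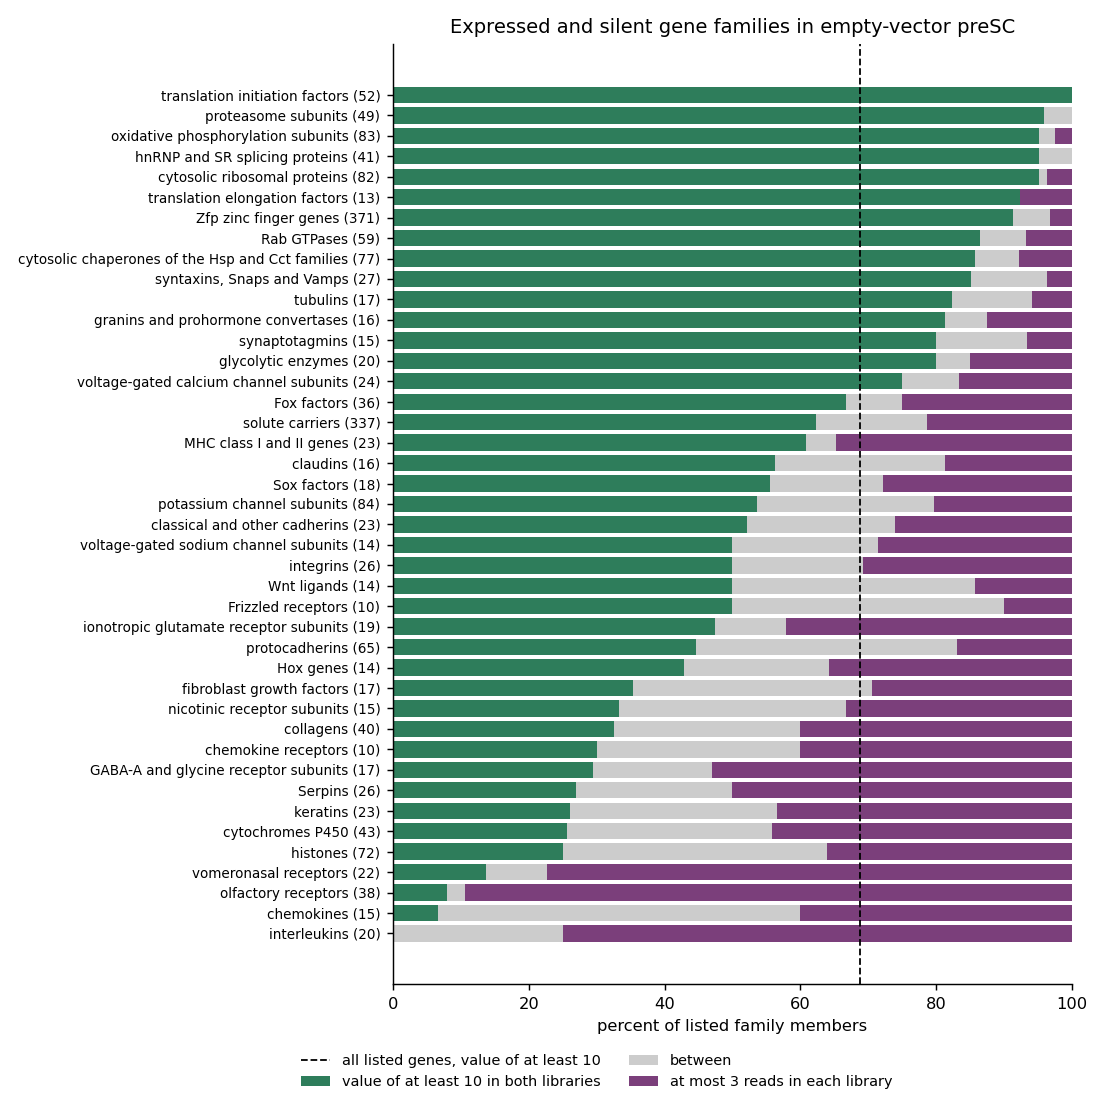
Share of listed members of each family that were expressed (green, value of at least 10 in both libraries), at the floor (purple, at most 3 reads in each library) or between (grey) in empty-vector preSC. The number of listed members is in brackets, and the dashed line is the 68.8% of all listed genes that were expressed. Initiation factors fill the whole bar, and interleukins have no green part.

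The CG count of the gene starts followed the abundance of the genes. When the 13805 genes with a RefSeq start were ordered by normalised read count and split into 10 bins of equal size, the median number of CG dinucleotides in 300 bases was 5 in the lowest bin, 11 in bin 3, 19 in bin 5 and 26 in the highest. It was 22 among expressed genes and 6 among genes at the floor. Starts with at most 3 CG dinucleotides made up 34.8% of the lowest bin and 2.61% of the highest. The letters TATAAA, searched on the gene's strand only, were in 5.51% of all windows, 11.9% of those of the lowest bin and 4.13% of those of the highest. Their share was smallest in bins 8 and 9, at 2.75%, so it did not fall steadily. The starts printed above show both ends: Ptma carries 23 CG dinucleotides in its 250 bases, and Col3a1 carries none and has TATAAA 117 bases before its start.

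The expressed neuroendocrine genes lay lower than expressed genes as a whole on this measure. The 35 of them with a start had a median of 16 CG dinucleotides, against 22 for all expressed genes, and 12 secretory genes had a median of 17. The E-box CAGCTG, a sequence that reads the same on both strands and that bHLH factors are known to bind, was in 15.99% of all windows, in 14.5% of those of expressed genes and in 8 of these 35 (22.9%). It was also in 3 of the 8 windows of list members that were not expressed. Chga has CAGCTG at 2 places in the 250 bases printed, and Calca has it within the 50 bases after its start. Chgb, Pcsk2, Pam and Resp18 hold it too. Scg2, Scg3, Scg5, Pcsk1, Pcsk1n, Ptprn, Ptprn2, Syp, Uchl1 and Ddc are among those that do not. Ptma, which is on no neuroendocrine list, also has CAGCTG in the bases printed. CAGCTG and TATAAA were the motifs searched, their letters allow no overlap with each other, and a match is a description of the sequence.

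**Figure D4:**
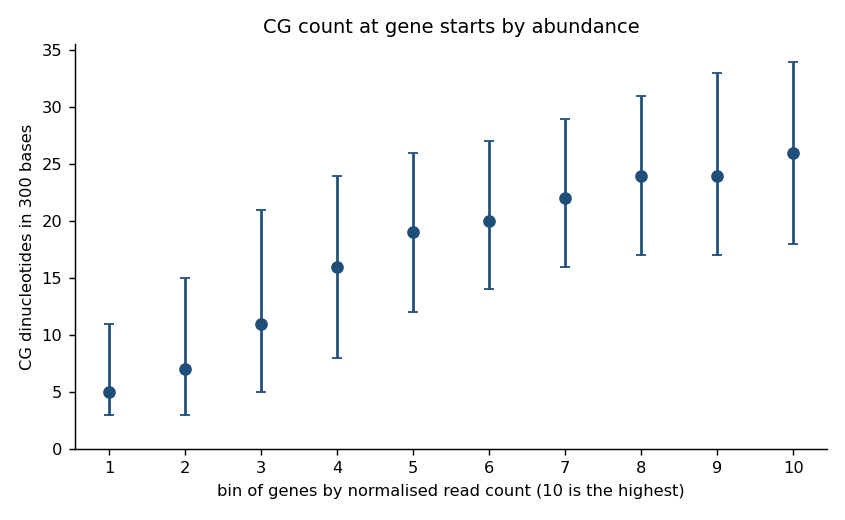
CG dinucleotides in the 300 bases around each gene's start (y axis) in 10 bins of genes ordered by normalised read count in empty-vector preSC (x axis, 10 the highest). Points are medians and bars span the first to the third quartile over genes. The median rises from 5 in the lowest bin to 26 in the highest.

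The ± of every level above is the spread between the libraries, and for TPM it does not cover the choice of transcript length. Over the 12152 expressed genes the median absolute log2 ratio of library A to library B was 0.12, 95% of genes lay within 1.38-fold, and 308 genes (2.53%) differed by more than 1.5-fold, 35 of them by more than 2-fold. With the genes that had reads split into 10 bins by abundance, the median absolute log2 ratio was 0.10 in the highest bin and 0.40 in bin 2, where genes had between 0.402 and 2.43 normalised reads. Levels under about 10 are therefore known only roughly.

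Among genes with a mean of at least 100, the 5 with the largest ratio in each direction were these. Library B was higher for Ankle1, an endonuclease, at 372 against 173 normalised reads in library A, and for Cpt1a, which carries fatty acids into mitochondria, at 303 against 151. Txnip, a glucose-responsive inhibitor of thioredoxin, read 868 in library A and 1682 in library B. Vcan, a proteoglycan, and Bmp1, a procollagen protease, moved the same way. Library A was higher for Aldoc, a brain-type aldolase, at 205 against 79.5 in library B, for Nell1, a secreted growth factor-like protein, at 1629.7 against 770.4, and for Frem2, a basement membrane protein, at 708 against 336. Oplah, an enzyme of glutathione turnover, and Cd59a, a complement regulator, were higher in library A as well. None of these genes is a marker taken for the labelled cells, and with 1 library on each side the differences have no replicate check.

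**Figure D5:**
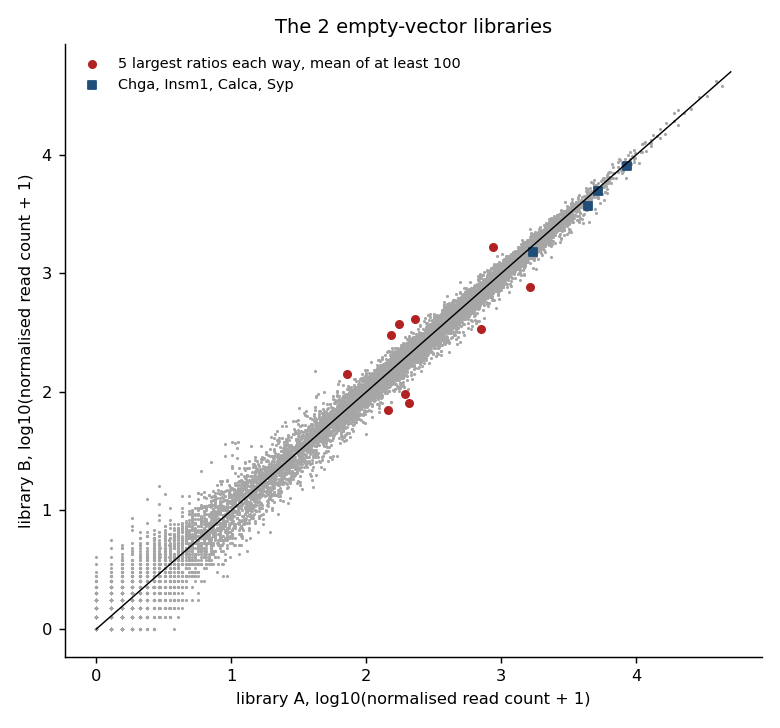
Library A against library B of empty-vector preSC. Each grey point is a gene, the axes are log10(normalised read count + 1), the line marks equal values, blue squares are Chga, Insm1, Calca and Syp, and red points are the 10 genes with the largest ratios among those with a mean of at least 100. The points close on the line toward high values, and all 4 markers of the labelled cells lie at or just under it.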

How the data were processed

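RNA was selected with oligo-dT from 500 ng of total RNA and made into libraries with a NEBNext Ultra kit, per the labels' protocols. The deposited values are a normalised signal per gene, and the submitters' processing notes name TopHat, Bowtie, HTSeq and DESeq2 without versions or roles; build, annotation and strand setting are not given in the sources used here, so overlapping genes carry added uncertainty. In each of the 8 files 100% of the values were whole multiples of 1 step (tolerance 0.01), so the deposited signal is a read count per gene divided by a factor per sample, and whole reads were recovered. No count model was fitted, because 1 group holds no contrast. Sets of samples whose reads differed by close to sampling noise (chi-square per degree of freedom under 1.5, over genes with at least 10 reads on average) were averaged, which gave 2 libraries. If these are runs of the same RNA, the SD is technical.

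For TPM, the longest GENCODE M21 transcript under each symbol gave the length (17453 of 17655 genes). Symbols were matched to RefSeq for 17620 genes, 379 of them by synonym, and start sequences to 13805. Work was done in Python 3.11.15 with pandas 2.3.3, numpy 2.4.6 and scipy 1.17.1, and the recovery of reads and libraries was tested on simulated data. Shares and floors cover counting error only.

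Named genes were the markers taken for the labelled cells, the genotype genes and the 20 highest genes on either scale. They also included at most the 5 highest and the defining absent members of each list and the highest member of each family. The 10 highest factors and the 5 largest library ratios each way completed them. Some genes under this rule are not reported here. Others were added after their values were seen: the lower neuroendocrine, genotype, lineage and neuron genes, and low members of the ribosomal, complex I, Rab and glycolytic families. The members and all lists were chosen with earlier results of these data known.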

Additional observations from a re-analysis of the deposited data

How the results depend on the processing

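Expressed genes numbered 12152 as reported and 10636 at a minimum of 50, and 12443, 14054 and 11837 were counted at 1 TPM, at over 3 reads per library and over 8 separate samples. Without library A or library B the count was 12272 to 12304, the neuroendocrine count 46 and the share of the 100 most abundant genes 12.1% to 12.3%. Expressed markers of other cell types fell from 32 of 121 to 18 at a minimum of 50 and were 32 to 36 without a library. Of 86 lists and families, 27 changed their count by more than 1.5-fold at a minimum of 50 and 6 at 1 TPM. Without library A 5 did so, and without library B 2. Nicotinic subunits, for instance, fell from 5 to 2 at a minimum of 50, and histones rose from 18 to 29 at 1 TPM. The 100 most abundant genes held 17.2% of the per-length total. With the median transcript length, Gapdh rose from 607 to 1341 TPM and passed Chga (803 to 812 TPM), as Syp passed Insm1; with the merged exon length Insm1 (828 TPM) passed Chga (739.7 TPM). No paired analysis was possible because the results come from no test and 1 group holds no contrast.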
